A study of Mus musculus with 10 samples.

Results

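Clusterin (*Clu*) was followed in single cells of a pair of lineages from the mouse hind limb. It is 1 gene (ENSMUSG00000022037.15) of the 29183 analysed in both lineages. The copy of the *Grem1*-lineage table used here ends within a line, and genes after that line were not analysed in that lineage. It lies on the plus strand of chr14:65968483-65981547 of GRCm38, where the GENCODE annotation gives it 9 transcripts, 6 of them protein-coding, and no overlapping gene. The longest model has 9 exons. The counts do not tell transcripts apart, so every value below is for the gene as a whole. The row was read by its name, and no measured value of *Clu* was used to sort cells into groups. *Clu* and the rule that divides the cells were chosen with earlier results of these data known. The paper names clusterin among transcripts that differed in an articular cluster of its *Grem1*-lineage cells. The direction of *Clu* between the cell groups below is therefore not independent evidence.

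*Clu* encodes a secreted glycoprotein that works as an extracellular chaperone: it binds unfolded proteins outside the cell and keeps them soluble. It also binds the terminal complement complex and lipids, and is therefore known as apolipoprotein J. In joints it is known to be made by cells at the cartilage surface and to be present in synovial fluid. Cells take it up through surface receptors, among them megalin (*Lrp2*).

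The *Grem1* lineage came from C57BL/6 *Grem1-creERT;R26-LSL-TdTomato* mice (*Grem1-TdT*) that ate tamoxifen chow for 2 weeks from an age of 5 to 6 weeks. Articular cartilage (AC) and growth plate (GP) were excised from their hind limbs, and live TdTomato+ cells were sorted into 96-well plates. The *Lepr* lineage came from age-paired C57BL/6 *Lepr-TdT* mice, in which a constitutive *Lepr-cre* drives the same reporter, so that descendants of cells that once expressed *Lepr* are labelled too. Their cells came from whole bones and were CD45-Ter119-CD31-. In both lineages TdTomato marks a history of Cre activity, and tissue, digestion and sort differ together with the lineage. Unique molecular identifiers (UMIs) were counted for 8 *Grem1*-lineage plates (1, 2 and 4 to 9) and 2 *Lepr*-lineage plates (1 and 2). The labels do not say how many mice a plate holds or whether its cells are from AC, GP or both. The plate was taken as the replicate, and p-values measure only the spread between plates.

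A minimum of 350 detected genes per cell left 684 of 768 *Grem1*-lineage wells and 160 of 162 *Lepr*-lineage wells. *Grem1*-lineage cells were divided by 3 genes. In 391 cells the summed UMIs of *Cilp*, the cartilage intermediate layer protein, and *1500015O10Rik* (*Ecrg4*, an augurin precursor) exceeded those of *Cnmd*, chondromodulin. These are called *Cilp*/*Ecrg4*-high. The 293 other cells had as many or more *Cnmd* UMIs, and 43 of the 684 cells lay within 3 UMIs of the border. The split uses UMIs of the same cells, so genes that go with *Cilp*, *1500015O10Rik* or *Cnmd* cell by cell differ between the groups by construction. The counts of 0 wells were identical to those of another well, and the plates share 1 set of 96 well barcodes by design. Summed UMIs per plate ranged from 133289 to 179071 in the *Grem1* lineage and were 59981 and 64310 over the same genes in the *Lepr* lineage. The median cell had 1216 UMIs in the *Cilp*/*Ecrg4*-high group, 2157 among the other cells and 505 in the *Lepr* lineage, all over the shared genes. Over all genes of the *Lepr* table the median was 1222 UMIs, and CPM below are relative to the shared genes unless stated. That depth sets how often a UMI can be seen, and shares of cells are therefore also given at equal depth.

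The labels were checked against marker genes summed per plate, in CPM (UMIs of a gene scaled to a common total). The 10 chondrocyte markers reached 183127 to 228941 CPM in *Cilp*/*Ecrg4*-high cells and 139799 to 180557 CPM in the other *Grem1*-lineage cells. On the *Lepr*-lineage plates they reached 117 and 6857 CPM, with *Col9a1* and *Epyc* at 0. The 6 listed markers of marrow stroma stood at 26559 and 37512 CPM there and at no more than 402 CPM in any *Grem1*-lineage sum. The 7 listed haematopoietic markers reached 20340 and 29871 CPM in the *Lepr* lineage against at most 5911 CPM in *Grem1*-lineage sums, although the sort left out CD45+ and Ter119+ cells. Plates 1, 2 and 4 of the *Grem1* lineage stand apart from plates 5 to 9, for example in *Dnajb1*, a partner of the chaperone Hsp70 (1131 to 1653 CPM against 3616 to 5394 CPM after normalisation), and results for *Clu* are given for both sets.

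Summed over all cells of a plate, *Clu* was lower in the *Lepr* lineage than in the *Grem1* lineage. After TMM normalisation, plates 1, 2 and 4 of the *Grem1* lineage held 8971, 11420 and 15624 CPM of *Clu*. Plates 5, 6, 7, 8 and 9 held 5488, 5317, 8938, 5710 and 7495 CPM. The *Lepr*-lineage plates held 2284 and 2068 CPM, both below the lowest *Grem1*-lineage plate. The means were 8620 ± 3537 CPM (SD, n = 8 plates) and 2176 ± 153 CPM (SD, n = 2 plates), and the log2 fold change was -1.99 (SE 0.46), a 3.96-fold lower level in the *Lepr* lineage (adjusted p = 0.0039, quasi-likelihood test of edgeR, Benjamini-Hochberg). *Clu* was 1 of 493 genes called lower, 16.7% of the 2944 tested. A further 12.2% were called higher, so that 28.9% of all genes differed, and a difference between these lineages was common. Without plates 1, 2 and 4 of the *Grem1* lineage the log2 fold change was -1.59, and without plates 5 to 9 it was -2.43. Both were past the threshold. In sums over cells, a lower share of *Clu*-rich cells and less *Clu* per cell cannot be told apart, and the single cells are described next.

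**Figure D1:**
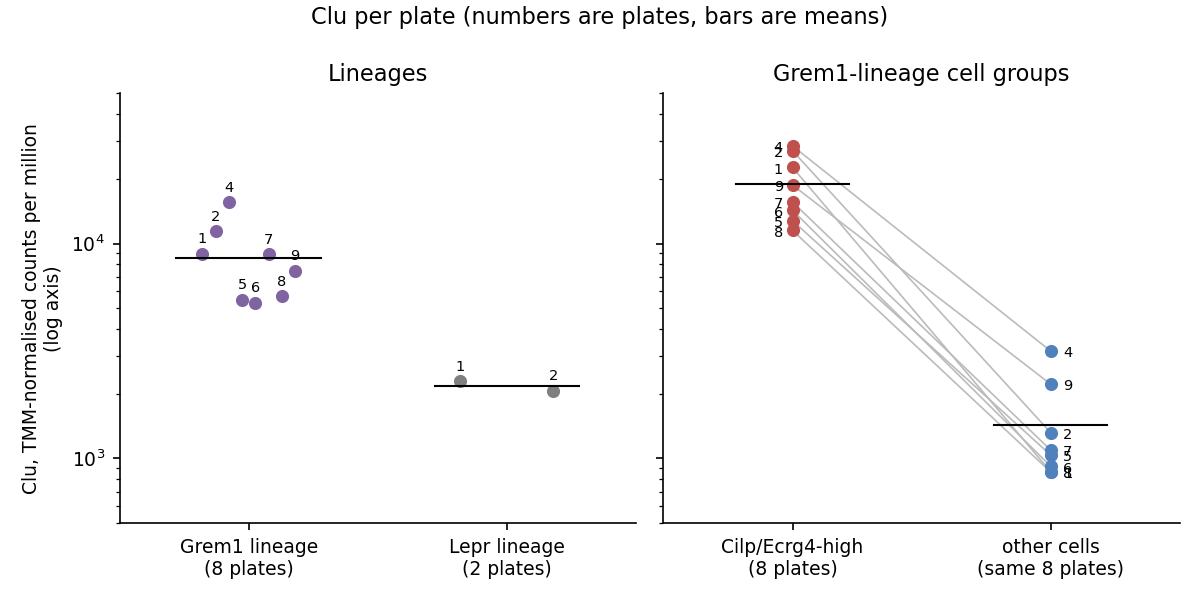
*Clu* in TMM-normalised CPM on a log axis, 1 point per plate, with plate numbers and bars at the mean. Left, all kept cells of the *Grem1* lineage (5317 to 15624) and the *Lepr* lineage (2068 and 2284); right, the 2 cell groups of each *Grem1*-lineage plate joined by lines, where every *Cilp*/*Ecrg4*-high sum (11521 or more) lies above every sum of the other cells (3162 or less).

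Within the *Grem1* lineage, *Clu* separated the cell groups on every plate. In *Cilp*/*Ecrg4*-high cells, *Clu* stood at 22632, 27057 and 28510 CPM on plates 1, 2 and 4. On plates 5, 6, 7, 8 and 9 it stood at 12794, 14300, 15613, 11521 and 18747 CPM. All 3 values of plates 1, 2 and 4 thus lay above those of the other 5 plates, a grouping that was seen in these data and was not tested. In the other cells, plates 1, 2 and 4 held 867, 1320 and 3162 CPM, and plates 5 to 9 held 1038, 919, 1094, 865 and 2217 CPM. Plates 4 and 9 were the high ones there. The groups did not overlap, and the ratio within a plate ran from 8.46 on plate 9 to 26.1 on plate 1, with a median of 13.8. How many of the other tested genes kept the groups apart in this way was not counted, so the separation is not shown to be particular to *Clu*.

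The means were 18897 ± 6509 CPM and 1435 ± 828 CPM (SD, n = 8 plates each). The log2 fold change was 3.72 (SE 0.31), 13.2-fold, with an adjusted p of 8.1e-09 (quasi-likelihood test of edgeR, Benjamini-Hochberg). Higher levels in *Cilp*/*Ecrg4*-high cells were called for 207 of 990 genes (20.9%) and lower levels for 188 (19.0%), 39.9% together, with the 3 genes of the split left out. The 2 sums of a plate come from 1 library, and with the plate as a block the log2 fold change of *Clu* was 3.80. When cells within 3 UMIs of the border were left out it was 3.90. The sum of fibroblast and tendon markers moved with the groups. The 6 listed ones summed to 20736 to 58767 CPM in *Cilp*/*Ecrg4*-high cells and to 5209 to 14127 CPM in the other cells. Not all of them moved that way. Of 498050 UMIs of *Cilp*/*Ecrg4*-high cells 9951 were *Dcn* and 1640 were *Fmod*. Of 684093 UMIs of the other cells 1658 were *Dcn* and 2820 were *Fmod*. The part of these markers in the result was not tested. *Dcn* is on that list as well as among the articular surface genes below. Osteoblast markers ranged from 146 to 39094 CPM and from 538 to 21908 CPM. Leaving out cells with over 2% of UMIs from osteoblast, haematopoietic or endothelial markers (9 *Cilp*/*Ecrg4*-high and 19 other cells) gave 3.72.

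The *Lepr* lineage was set beside both cell groups in 1 fit over the 3 kinds of sums, in which *Clu* averaged 19078 ± 6611 CPM in *Cilp*/*Ecrg4*-high cells, 2263 ± 147 CPM in *Lepr*-lineage cells and 1503 ± 870 CPM in the other *Grem1*-lineage cells. The *Lepr* lineage was lower than *Cilp*/*Ecrg4*-high cells by a log2 fold change of -3.07 (SE 0.56, adjusted p = 0.00019, same edgeR test). Against the other *Grem1*-lineage cells the log2 fold change was 0.59 (SE 0.44, adjusted p = 0.32, same edgeR test) and was not called. The *Lepr*-lineage plates, 2159 and 2367 CPM in that fit, lay on either side of plate 9 of the other cells (2302 CPM) and below plate 4 (3334 CPM), while the remaining 6 plates lay at 1364 CPM or less. Without plate 4 the log2 fold change was 0.86 (adjusted p = 0.076, edgeR). These neighbours in the order of levels were not shown to differ, while *Cilp*/*Ecrg4*-high cells stood above both.

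Cell by cell, *Clu* was found in nearly all *Cilp*/*Ecrg4*-high cells. At least 1 UMI was seen in 384 of 391 of them (98.2%, 95% Clopper-Pearson interval 96.3% to 99.3%), with a median of 14 UMIs. Among the other *Grem1*-lineage cells 267 of 293 (91.1%, 87.3% to 94.1%) had one, with a median of 3 UMIs. In the *Lepr* lineage 129 of 160 cells (80.6%, 73.6% to 86.4%) had one, with a median of 1 UMI. Per cell, the median level was 11458 CPM in *Cilp*/*Ecrg4*-high cells, and the medians of single plates ran from 7252 to 22809 CPM. In the other cells the median was 1186 CPM, between 803 and 2173 CPM by plate, and in the *Lepr* lineage 2798 CPM, 2729 and 2822 CPM by plate. These intervals cover counting error only. *Clu* took 1.69% of all UMIs of the *Cilp*/*Ecrg4*-high cells, 0.162% of those of the other cells and 0.282% in the *Lepr* lineage, over the shared genes.

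The distributions overlapped in few cells. Of the *Cilp*/*Ecrg4*-high cells, 17 of 391 lay below the median of the other cells, and 81.3% lay above their 95th percentile of 5150 CPM. Conversely, 8 of 293 other cells lay above the *Cilp*/*Ecrg4*-high median. These 8 cells were spread over 5 plates, 4 of them on plate 4, and held 18.0% of all *Clu* UMIs of the other cells. Of the 8, 5 lay within 3 UMIs of the border that divided the groups. The cell richest in *Clu* was on plate 2, with 278 UMIs or 118651 CPM. The richest *Lepr*-lineage cell had 36 UMIs.

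**Figure D2:**
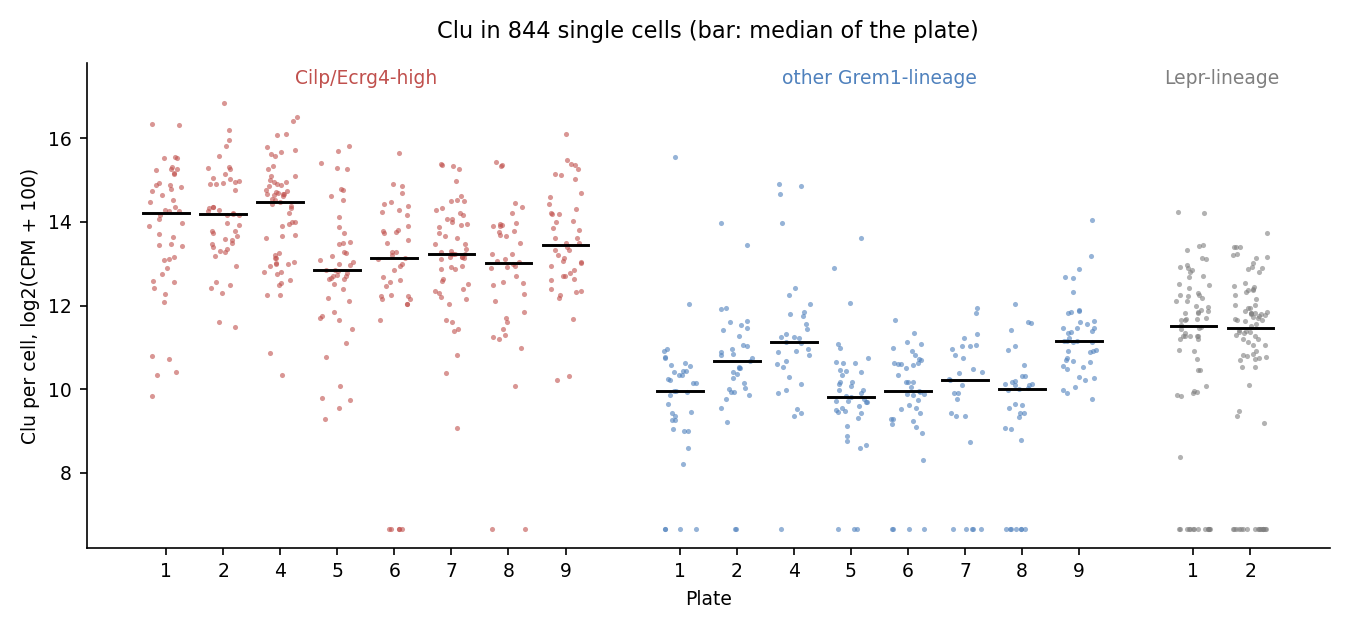
*Clu* per cell as log2(CPM + 100) for the 844 kept cells, by plate and kind, with a bar at the median of the plate; the lowest row of points holds cells with no *Clu* UMI (7 *Cilp*/*Ecrg4*-high, 26 other, 31 *Lepr*-lineage). The plate medians of *Cilp*/*Ecrg4*-high cells lie between 7252 and 22809 CPM, above those of the *Lepr* lineage (2729 and 2822) and of the other cells (803 to 2173).

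At equal depth the share of cells with *Clu* still differed. Each *Grem1*-lineage cell was thinned to 796 UMIs, the 10th percentile, and 55 *Cilp*/*Ecrg4*-high and 13 other cells that were shallower were left out. *Clu* was then seen in 97.2% ± 2.89 of *Cilp*/*Ecrg4*-high cells and in 68.3% ± 14.6 of the other cells (SD, n = 8 plates). The share among the other cells was 48.5% on plate 8 and 88.1% on plate 9, the extremes. Among *Cilp*/*Ecrg4*-high cells it was 92.1% to 100%, so the groups did not overlap, and this was not counted for other genes. The difference was 29.0 ± 12.7 percentage points, higher on 8 of 8 plates (p = 0.0078 in an exact two-sided sign-flip permutation test, the smallest that 8 plates allow). Thinned to 500 UMIs, so that *Lepr*-lineage cells could be set beside them, the shares were 93.9% of 391 *Cilp*/*Ecrg4*-high cells, 64.6% of 82 *Lepr*-lineage cells and 52.2% of 293 other cells, with 8.51, 1.43 and 1.14 *Clu* UMIs per cell. The last 2 shares have overlapping intervals, 53.3% to 74.9% and 46.3% to 58.1%, and 78 shallower *Lepr*-lineage cells were left out.

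*Clu* in the other cells was also set beside further genes of the *Cilp*/*Ecrg4*-high group. As a percentage of the *Cilp*/*Ecrg4*-high level on the same plate, the other cells held a median of 9.13% of *Clu* (5.08% to 15.3% over 8 plates). They held 3.62% of *Gas1*, a growth arrest gene that binds hedgehog ligands, and 3.39% of *Angptl7*, an angiopoietin-like secreted protein. The figure was 9.31% for decorin (*Dcn*), a small proteoglycan of collagen fibrils, 18.9% for the cytokine-like gene *Cytl1* and 41.2% for chondroadherin (*Chad*). Further articular surface genes outside the split lay closer to *Clu*: *Cd14* at 9.38%, *Cilp2* at 8.50%, *Abi3bp* at 6.73% and *Creb5* at 6.08%. These genes did not share 1 ratio, and the median of *Clu* stood above *Gas1* and *Angptl7*, near *Dcn*, *Cd14* and *Cilp2* and below *Cytl1* and *Chad*. *Angptl7* rested on 16 UMIs in the other cells, and its range over plates, 0% to 6.22%, overlapped that of *Clu*. Whether part of the *Clu* of the other cells was carried between wells was not tested.

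On the *Lepr* side, *Cytl1* was seen in 60 of 74 cells of plate 1 and in 0 of 86 cells of plate 2, which allows a share of cells with a UMI of up to 3.49%. *Clu* was similar on both plates. Plate 2 held 162 *Clu* UMIs (2701 CPM without TMM) and plate 1 held 189 (2939 CPM). On plate 1 there were 52.5 *Clu* UMIs per 100 *Cytl1* UMIs, against 10.7 per 100 in *Grem1*-lineage cells. Cells of plate 1 with a *Cytl1* UMI had 2976 CPM of *Clu* and those without one 2674 CPM. *Clu* was no lower in *Lepr*-lineage cells with few haematopoietic transcripts: the 62 cells with at most 2% of UMIs from those markers had 3520 CPM, and the 98 cells with more had 2486 CPM.

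In *Cilp*/*Ecrg4*-high cells *Clu* varied between cells by more than counting error on every plate. The excess was measured in thinned cells as the variance minus the mean, over the squared mean, of *Clu* UMIs, which is 0 for counting error alone. In *Cilp*/*Ecrg4*-high cells it was 0.782 ± 0.177 (SD, n = 8 plates), from 0.574 on plate 7 to 1.17 on plate 5. In the other cells it was 0.551 ± 0.716, was below 0 on 3 of 8 plates and ran from -0.246 on plate 7 to 1.89 on plate 4, where 4 of the cells rich in *Clu* were found. The difference of 0.231 ± 0.648 was above 0 on 6 of 8 plates and did not pass the test (p = 0.34, exact two-sided sign-flip permutation test). Without plate 4 it was 0.427 (p = 0.031, exact), so that plate decides the call. The direction turned when cells were thinned to 500 UMIs (-1.53) or not thinned (-1.72), with 3 of 8 plates above 0 each time. The richest 10% of cells held 37.6% of the *Clu* UMIs of *Cilp*/*Ecrg4*-high cells, 35.9% of those of the other cells and 40.2% of those of the *Lepr* lineage.

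**Figure D3:**
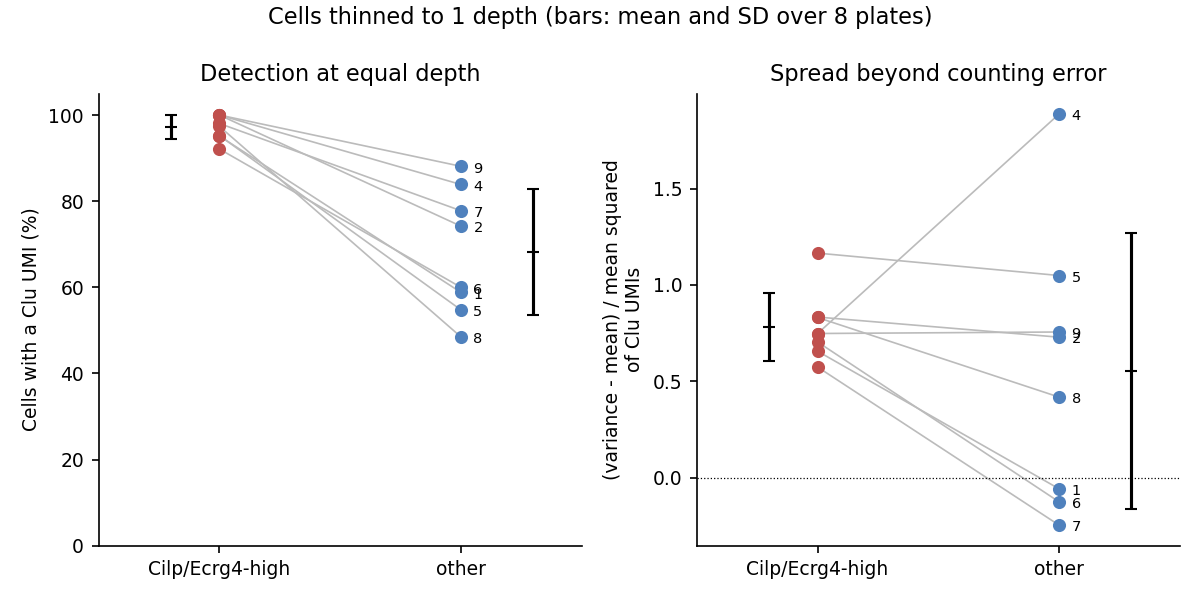
Both measures in cells thinned to 796 UMIs, 1 point per plate and group, joined by plate, with the mean and SD over 8 plates beside the points. The share of cells with a *Clu* UMI (left) is higher in the *Cilp*/*Ecrg4*-high group on all 8 plates, while the spread beyond counting error (right) ranges widely among the other cells, from -0.246 to 1.89, with plate 4 highest.

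Splits by 4 further genes gave no difference in *Clu* that passed the test. *Cilp*/*Ecrg4*-high cells of each plate were split by *Col10a1*, the collagen of hypertrophic cartilage, and by *Acan*, aggrecan, at the plate's median, and by the presence of a UMI of *Foxo1*, a transcription factor of cartilage maintenance, and of *Cd200*, a surface protein of skeletal stem cells. *Clu* averaged 16002 CPM in the upper and 17757 CPM in the lower part by *Col10a1*, and the log2 ratio was -0.17 ± 0.54 (SD, n = 8 plates, -0.79 to 0.83). By *Acan* it averaged 14349 and 19779 CPM (-0.32 ± 0.56, below 0 on 6 of 8 plates). By *Foxo1* the log2 ratio was 0.14 ± 0.25 and by *Cd200* -0.26 ± 0.45. Cells were not thinned in any of these splits, and the parts by *Col10a1*, *Foxo1* and *Cd200* also differed in depth. The median over plates of the median depth was 1310 UMIs in the upper and 1161.5 in the lower part by *Col10a1*. By *Acan* it was 1163.5 and 1161.75 UMIs. It was 1338 UMIs with a *Foxo1* UMI and 1170 without. By *Cd200* it was 1371 and 991 UMIs. The part of depth in these ratios was not tested. None of the 4 passed the exact two-sided sign-flip permutation test (adjusted p = 0.39 for *Col10a1* and 0.21 for each of the others), which does not show that the parts are alike. For *Acan* the sets of plates differed: the log2 ratio was -0.79 on plates 1, 2 and 4 and -0.04 on plates 5 to 9, a difference that was not tested.

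**Figure D4:**
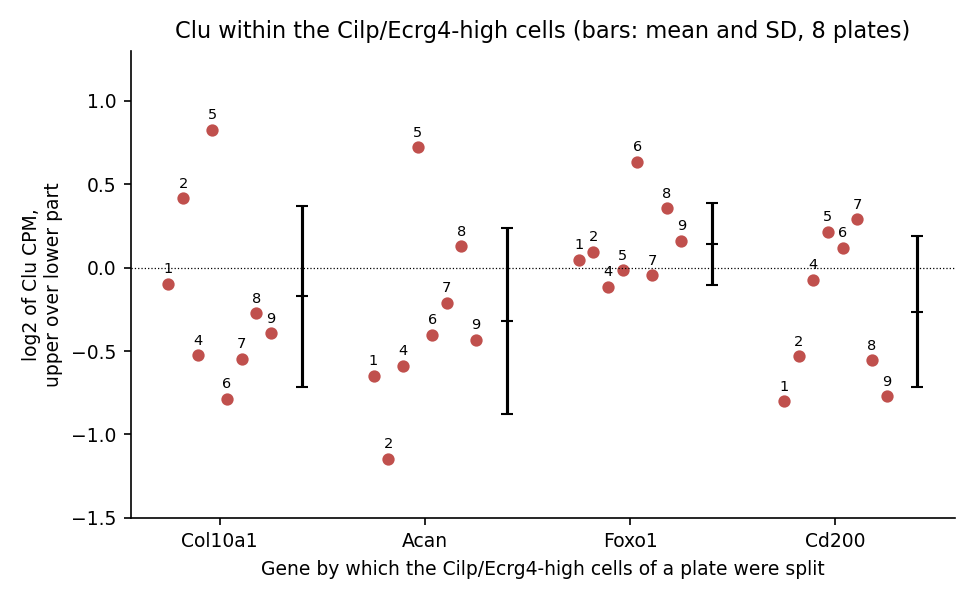
Log2 ratio of *Clu* CPM between the upper and the lower part of the *Cilp*/*Ecrg4*-high cells of a plate, split by 4 genes, 1 numbered point per plate, with the mean and SD over 8 plates at the right of each set. Points lie on both sides of 0 for every gene, from -1.14 to 0.83.

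Genes that followed *Clu* across cells were ranked by Spearman's rho within each plate, averaged over plates. The cells of a plate share a library and differ in depth, so the values are a description. Over 684 *Grem1*-lineage cells and 960 genes with a UMI in at least 20% of cells, the median rho was -0.14. *Dcn* was the closest at 0.68 ± 0.06 (SD, n = 8 plates), and *Cilp* (0.64), *Gas1* (0.63), *Cytl1* (0.61) and *1500015O10Rik* (0.59) came next. *Cpe*, a carboxypeptidase of hormone processing, stood at 0.53, *Cilp2* at 0.46, the sodium pump regulator *Fxyd5* at 0.45, cystatin C (*Cst3*) at 0.42 and the tetraspanin *Cd9* at 0.41. All 10 were above 0 on 8 of 8 plates. *Cilp* and *1500015O10Rik* were used to divide the cells, and over all cells the ranking mostly retells that division.

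Lowest in rho over all *Grem1*-lineage cells was *Cnmd*, also used for the split. It stood at -0.64 ± 0.05, collagen genes *Col9a3*, *Col2a1*, *Col9a1* and *Col11a2* between -0.58 and -0.54, *Acan* at -0.56 and epiphycan (*Epyc*) at -0.56. The sodium pump subunit *Fxyd2* (-0.54), the pseudogene *Gm11225* (-0.56) and *Gm37788* (-0.59), a transcript within *Rasal2*, completed the lowest 10. All were below 0 on 8 of 8 plates. *Gm11225* is a processed pseudogene, whose reads may belong to a similar gene, and *Gm37788* overlaps *Rasal2* on the same strand, so both counts are uncertain.

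Inside the *Cilp*/*Ecrg4*-high group these relations were far weaker, and the median rho over 622 genes was -0.013. Only 4 genes exceeded 0.2. They were *Cox7a2* (0.43 ± 0.18), a subunit of mitochondrial cytochrome oxidase, *Gas1* (0.33 ± 0.17), *Dcn* (0.22 ± 0.18) and *Cilp* (0.21 ± 0.25). *Cox7a2* and *Gas1* were above 0 on 8 of 8 plates, *Dcn* on 7 and *Cilp* on 6. *Gm44090*, a transcript within *Add2*, was the fifth at 0.17. *1500015O10Rik* (0.032), *Cytl1* (-0.023) and *Cpe* (0.0074), all close to *Clu* over the whole lineage, stood near 0 within the group. *Acan* (-0.21) and *Cnmd* (-0.19) were opposed to *Clu* on 8 of 8 plates here too. The chondrocyte gene *3110079O15Rik* (*Snorc*) stood at -0.19, *Cst3* at -0.19 and the immediate early gene *Fos* at -0.19. *Cilp*, *1500015O10Rik* and *Cnmd* decide which cells enter the group, so their rho within it is not free of the split. In thinned cells *Cox7a2* stood at 0.42, *Gas1* at 0.34 and *Acan* at -0.22. On plates 1, 2 and 4 alone *Cox7a2* was at 0.39 and on plates 5 to 9 at 0.46, while *Cilp* was at -0.04 and 0.37.

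*Cox7a2* was closest to *Clu* in that group alone: its rho was -0.11 ± 0.18 among the other *Grem1*-lineage cells and 0.11 ± 0.07 over the pair of *Lepr*-lineage plates, and the difference between groups was not tested. The genes lie apart, *Cox7a2* at chr9:79755361-79759878 and *Clu* on chromosome 14, and no annotated gene overlaps either. Among the 293 other cells *Dcn* (0.37), *Cytl1* (0.26), *Cpe* (0.25), *Cst3* (0.22) and the clotting factor gene *F13a1* (0.21) were highest. *Fscn1*, an actin-bundling protein (-0.27), and *Fxyd2* (-0.26) were lowest, with the pseudogenes *Gm16418* (-0.25), *Gm15427* (-0.25) and *Gm12109* (-0.24). *Cst3* thus had opposite signs in the 2 groups, 0.22 against -0.19.

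**Figure D5:**
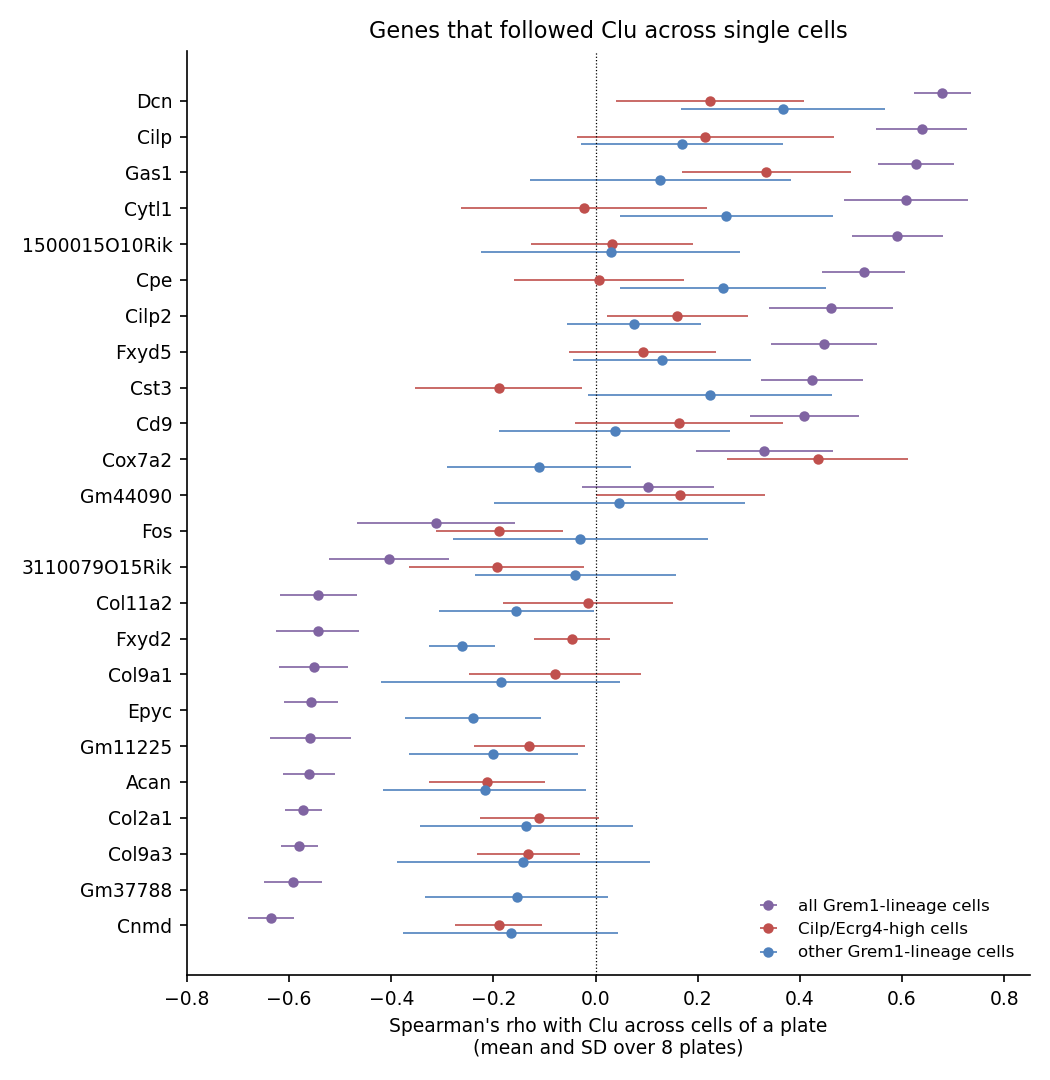
Spearman's rho with *Clu* across the cells of a plate, mean and SD over 8 plates, for all *Grem1*-lineage cells and for each cell group (a gene has no point where fewer than 20% of the cells of that kind had a UMI). From *Dcn* (0.68) to *Cnmd* (-0.64) the genes spread widely over all cells and narrow within *Cilp*/*Ecrg4*-high cells, where *Cox7a2* (0.43) and *Gas1* (0.33) are highest.

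In the *Lepr* lineage rho was taken over 1015 genes of the whole *Lepr* table, on 2 plates of 74 and 86 cells. The protease inhibitor *Serpine2* stood highest, at 0.34 ± 0.03 (SD, n = 2 plates), glutathione peroxidase 3 (*Gpx3*) at 0.32, *Igfbp5*, an insulin-like growth factor binding protein, at 0.25, *B2m* at 0.24 and *Selenow* at 0.24. *Cxcl12*, the chemokine of the haematopoietic niche, stood at 0.24. *Dcn*, which led in *Grem1*-lineage cells, was at -0.03. Among the lowest were 4 gene models, *Gm14173* (-0.28), *Gm42636* (-0.25), *Gm15427* (-0.25) and *Gm14513* (-0.23), 3 of them processed pseudogenes. With a median of 1 *Clu* UMI per cell, these correlations are weak and no finding.

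Genes with roles close to that of *Clu* were counted by list. The list of apolipoproteins and extracellular chaperones also holds *Aplp2*, an amyloid precursor-like protein that is no apolipoprotein. Of the 9 listed members, 4 could be tested between lineages and 2 rose in the *Lepr* lineage, opposite to *Clu*. *Apoe*, a carrier of lipids in plasma and tissue, was at 9218 ± 2833 CPM there and 1869 ± 398 CPM in the *Grem1* lineage (log2 fold change 2.30, SE 0.27). *Apod* was at 222 and 36.6 CPM (2.58, SE 0.69), while *Aplp2* (-0.34, SE 0.30) and the protease trap *A2m* (-0.64, SE 1.23) were not called. Between cell groups 2 of the list were tested: *Aplp2* rose in *Cilp*/*Ecrg4*-high cells (0.93, SE 0.20), and the apolipoprotein gene *Apoe* was not called (0.37, SE 0.25). With the gene minimum counted over shared genes, or without *Lepr*-lineage plate 1, 1 of the 2 calls between lineages was lost. Between groups, with no filter on low counts, 0 rose and 1 fell of 5 tested. That setting moved the median log2 fold change of all genes between groups from 0.01 to -0.15. The list's median log2 fold change between lineages was 0.98, beside -0.11 over all genes tested. All calls on lists are from the same edgeR tests, to be read against the shares of all genes called above.

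Receptors of clusterin were not analysed here in *Grem1*-lineage cells, since they are not among the shared genes. In the *Lepr* lineage *Lrp1* was seen in 27 of 160 cells (16.9%), *Plxna4* in 2, and *Lrp8*, *Trem2* and *Vldlr* in 1 each. *Lrp2* was seen in 0 of 160 cells, which allows a share of cells with a UMI of up to 1.88%. At this depth it does not limit the share of cells that express it. Haptoglobin (*Hp*), another extracellular chaperone, was seen in 156 of those cells.

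Clusterin binds the terminal products of complement. Of 14 listed members of the activation list 6 passed the filter on low counts, and 4 of them rose in the *Lepr* lineage: *C3*, the hub of the cascade (348 against 6.23 CPM, log2 fold change 5.58, SE 0.58), *C2* (5.98, SE 0.60), *C1ra* (3.66, SE 0.40) and *C1s1* (2.93, SE 0.53). *C4b* (-0.79, SE 0.64) was not called. The 4 averaged at most 22.2 CPM in the *Grem1* lineage (*C1ra*) and passed the filter through their level in the *Lepr* lineage. With no filter 5 of 13 rose. Of 13 listed regulators and terminal components, 3 were tested and 1 rose in the *Lepr* lineage. The others, *Cr1l* (-0.03, SE 0.37) and *Cd59a* (-1.59, SE 0.86), were not called. Between cell groups *C4b* was the 1 member of the activation list tested, and it rose with *Clu* in *Cilp*/*Ecrg4*-high cells (537 ± 361 against 218 ± 154 CPM, log2 fold change 1.35, SE 0.44). Its groups overlapped, and without plate 8 it was not called.

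The list of heat shock and folding genes gave a mixed picture. Of 15 tested 8 fell in the *Lepr* lineage and none rose. Among the 8 were *Dnajb1* (-4.13, SE 0.71), *Dnaja1* (-1.62, SE 0.31) and *Atf3* (-4.13, SE 0.73), a transcription factor of stress and no chaperone. Calnexin (*Canx*, -0.33, SE 0.31) was not called. On plates 1 and 2 of each lineage alone 5 of 14 fell, or 4 with a replicate block. Without plates 5 to 9 of the *Grem1* lineage it was 5 of 14, and without *Lepr*-lineage plate 2 it was 5 of 15. Between cell groups 12 were tested, and 3 rose in *Cilp*/*Ecrg4*-high cells: the small heat shock protein gene *Cryab* (1.60, SE 0.32), *Bag3* (0.98, SE 0.28) and *Dnajc3* (0.62, SE 0.14). *Dnajb1* fell (-1.56, SE 0.35), and *Canx* (0.25, SE 0.18) and *Atf3* (-0.59, SE 0.28) were not called. Of the apoptosis list, 2 of 6 tested fell in the *Lepr* lineage, *Bnip3* (-4.36, SE 0.62) and *Bcl2l1* (-1.81, SE 0.60), with *Bnip3l* (-0.27, SE 0.36) and *Bax* (-0.20, SE 0.29) not called. Without plate 5 or without plate 8 of the *Grem1* lineage 1 of these 2 calls was lost, and likewise on plates 1 and 2 alone, without plates 5 to 9, without *Lepr*-lineage plate 1 and with the gene minimum over shared genes. In *Cilp*/*Ecrg4*-high cells *Bnip3* (1.20, SE 0.19) and *Bnip3l* (0.73, SE 0.23) rose and *Bax*, which opens mitochondria in apoptosis, fell (-0.51, SE 0.20, adjusted p = 0.044 in edgeR). The call on *Bax* was lost with DESeq2, with no filter, with the border cells left out, without plate 1, 2, 4, 5 or 7, and in both plate sets. Without plate 4, and without plates 5 to 9, 1 member of the list rose in place of 2.

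Cartilage lists place *Clu* among its neighbours. Of 13 listed articular surface genes, 7 outside the split passed the filter on low counts, some of them through their level in *Cilp*/*Ecrg4*-high cells, and those 7 rose there. With no filter 10 of 11 rose. On the log2 scale *Dcn* rose by 3.39 (SE 0.28), *Gas1* by 5.12 (SE 0.25) and *Cilp2* by 3.56 (SE 0.29). Against the *Grem1* lineage 8 of 10 fell in the *Lepr* lineage, *Dcn* by a log2 fold change of -2.87 (SE 0.48) and *Gas1* of -6.22 (SE 0.55). *Cd14* (0.27, SE 0.42) and *Abi3bp* (0.23, SE 0.32) were not called. *Gas1* had 3 UMIs in all *Lepr*-lineage cells and passed the filter through its level in the *Grem1* lineage, so its fall was close to fixed. Of 14 tested cartilage matrix genes outside the split, 4 rose, *Cytl1* (2.75, SE 0.21), *Chad* (1.73, SE 0.23), *Comp* (0.64, SE 0.14) and *Col10a1* (2.11, SE 0.45), and 8 fell, among them *Col2a1* (-1.92, SE 0.17). The 15 listed fell in the *Lepr* lineage, all tested through their level in the *Grem1* lineage, *Col2a1* by a log2 fold change of -8.82 (SE 0.96) and *Cytl1* of -5.23 (SE 1.25), both more than *Clu* in size. Of the 6 listed genes that the study set beside its articular cells, *Cd200* (2.26, SE 0.25), *Foxo1* (1.82, SE 0.27) and *Col10a1* rose in *Cilp*/*Ecrg4*-high cells, *Acan* fell (-0.90, SE 0.21) and *Fgfr3* was not called (0.03, SE 0.24). All 6 fell in the *Lepr* lineage, where *Acan*, with 5 UMIs in all cells, was tested only through its level in the *Grem1* lineage. The list was drawn from the study's account of these cells, so its direction is not independent evidence.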

How the data were processed

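UMI counts per gene and cell were deposited by the authors as 1 table per lineage, with no normalisation. Per the labels, UMI-tools, STAR, featureCounts, SAMtools and Seurat were used on mm10, with no versions in those labels. Libraries were made with Nextera XT.

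Tests and levels rest on the 29183 genes present in both tables. The copy of the *Grem1*-lineage table ends within a line, which was left out, and genes after it were not analysed in that lineage. *Lepr*-lineage correlations, receptors, *Hp*, *Prg4*, *Grem1* and *Lepr* were read from the whole *Lepr* table of 50508 genes. The shared genes held 40.9% of the UMIs of the *Lepr* table, so levels in CPM are shares of the shared genes. Wells under 350 detected genes, counted over each lineage's own table, were left out. With the minimum counted over the shared genes, the log2 fold change of *Clu* between lineages was -2.24. UMIs were summed per plate and group and tested with edgeR 4.0.16 (quasi-likelihood, TMM, filterByExpr, Benjamini-Hochberg adjustment, threshold 0.05) in R 4.3.3, over all genes. SE is approximate, taken from the fold change and its F statistic. DESeq2 1.42.0, other filters, scalings and cell filters, and leaving out each plate were alternatives. Plate sets 1, 2 and 4 and 5 to 9 were added as alternatives after seeing the data. Cells were thinned, correlated and tested by exact sign-flip permutation in Python 3.11.15 with numpy 2.4.6, pandas 2.3.3 and scipy 1.17.1. The fits were also run on simulated counts with the same dispersion for every gene and no correlation between the sums of a plate. That setting is simpler than these data, so it does not show how the fits behave on them. Intervals are Clopper-Pearson at 95% and cover counting error only. The limit beside a count of 0 cells is 3 cells of the total.

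*Clu*, its lists and the split were chosen with earlier results of these data known. Named were *Clu*, the split genes, up to 4 members of highest CPM per list with called members of opposite direction, and the genes of highest and lowest rho (10 each over the *Grem1* lineage, 5 each elsewhere). *Cpe*, *Cytl1* and *1500015O10Rik* within groups, *Cxcl12*, *Cryab*, *Bag3*, *Comp*, *Angptl7* and other further list members were named after their values were seen. Both groups of a plate come from 1 library, and deviations from the group means correlated within plates by 0.313 on average (0.200 to 0.504) against -0.044 between plates, so plates pair the sums. The reported fits have no block, and the fit with the plate as a block was the alternative. Lineage plates share only a number. Some members of the lists and of the rankings by rho are not reported here.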

Additional observations from a re-analysis of the deposited data

Results flagged for a closer look

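On 1 plate each, 2 measures of spread stood beyond Dixon's limit. In *Cilp*/*Ecrg4*-high cells the spread of *Clu* beyond counting error was 1.17 on plate 5, and the nearest plate had 0.833. The difference of that spread from the other cells was -1.14 on plate 4, and the nearest plate had -0.0078. Of 14 measures examined in this way 2 stood out, and chance alone marks about 1 in 20.

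The 84 *Grem1*-lineage wells with fewer than 350 detected genes were used only in the alternatives with no gene minimum. They held *Clu* in 75 wells, at 12210 CPM (486 UMIs), within the range of whole *Grem1*-lineage plates. Their median depth was 501.5 UMIs. The 2 *Lepr*-lineage wells under the minimum held 0 *Clu* UMIs.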

How the results depend on the processing

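The log2 fold changes of *Clu* kept their direction and their side of the threshold under every alternative run: between lineages -2.43 to -1.59 (20 alternatives, adjusted p at most 0.031 with edgeR or DESeq2), between cell groups 3.45 to 3.90 (21), *Lepr* lineage against *Cilp*/*Ecrg4*-high cells -3.52 to -2.70 (16) and against the other cells 0.30 to 0.86 (16, not called in any). Adding the plate as a replicate block to the paired cell groups gave 3.80 and 458 calls in place of 395 and changed no call on *Clu*. The 4 splits within the *Cilp*/*Ecrg4*-high group did not pass the test under any of 12 alternatives each, of which the plate sets could not reach the threshold (smallest exact p 0.0625 and 0.25).

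Counts of genes moved more. Between lineages 851 genes became 451 on plates 1 and 2 alone without a block, 436 with the replicate block, and 529 to 849 when single plates were left out, the lowest without *Lepr*-lineage plate 2. With fewer plates, fewer differences can be called. Between cell groups 395 became 747 with no filter on low counts, where 12511 genes were tested, and 245 on plates 1, 2 and 4 alone. The share of cells with *Clu* differed by 30.7 points without plates 1, 2 and 4 (exact p = 0.0625) and by 26.1 points without plates 5 to 9 (exact p = 0.25), the smallest p that so few plates allow. It ran from 26.1 to 31.4 points when single plates were left out. The difference in spread changed sign when cells were thinned to 500 UMIs (-1.53) or not thinned (-1.72) and without plates 5 to 9 (-0.107), and the cause was not tested. Leaving out single plates gave 0.146 to 0.427, and the highest, without plate 4, passed the exact test (p = 0.031). Of 240 alternative values of the rank correlations over the *Grem1* lineage, 210 moved by less than 1 SD over plates. Depth limits the *Lepr* lineage most, with a median of 505 UMIs per cell over shared genes and 1222 over its whole table.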

Other observations

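Over all genes of the *Lepr* table, which holds more genes than were shared, *Clu* stood at 1191 CPM on plate 1 and 1114 CPM on plate 2, and *Apoe* at 3761 and 6042 CPM. *Prg4*, the lubricin gene of the joint surface, was seen in 27 of 160 *Lepr*-lineage cells and stood at 624 CPM on plate 1 and 6.87 CPM on plate 2. *Clu* did not differ between these plates in that way. Plate 1 is also the plate with *Cytl1* UMIs, and the source of these transcripts was not tested. *Grem1* itself was seen in 19 of the 160 cells and *Lepr* in 53.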
